A study of Mus musculus with 6 samples.

Results

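Chromatin accessibility was examined at 10 genes of the unfolded protein response and the integrated stress response in mouse acute myeloid leukaemia cells in which 1 copy of Usp18 was to be deleted. The genes were Hspa5, Hsp90b1, Pdia4, Dnajb9, Herpud1, Xbp1, Atf4, Ddit3, Trib3 and Asns. Their peaks were all peaks of the table that carried 1 of these gene names and whose centre lay at most 30000 bp from its transcription start site (TSS), which gave 165 of 175929 peaks, from 2 for Hsp90b1 to 45 for Herpud1. Peaks were taken by name and distance and not by tag value, though the genes were chosen with earlier results of these data known. The farthest peak inside the limit lay at 28575 bp, and 11 further peaks of 3 of the genes lay beyond it, the nearest at 31583 bp.

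The assay was ATAC-seq, with 3 libraries per group. Its transposase cuts accessible DNA and leaves sequencing adapters at the cuts. Both groups held fetal liver cells of genotype Usp18+/f UBCER-Cre (C57BL/6 background), transduced with a GFP retrovirus for the AML1-ETO splice form AE9a and passed through irradiated C57BL/6 recipients of both sexes, 8 to 12 weeks of age. Sick recipients received oil (labelled Usp18+/f, libraries 1, 2 and 4) or tamoxifen in oil (labelled Usp18+/D, libraries 1, 3 and 4), and GFP+ Lin- c-Kit+ cells were sorted from the spleen 3 days after the first injection. By the study's methods, the cells of the set paired with ATAC-seq were sorted after 3 injections. The Cre is driven by the broadly active ubiquitin C promoter in the transplanted cells, both groups carry it, and tamoxifen was given to the whole animal, so that tamoxifen itself, Cre activity and loss of the Usp18 copy cannot be told apart here. The labels do not tie libraries to mice, and the study's methods are not uniform on this (one passage gives a matching number of mice, another speaks of duplicates), so p-values measure the spread between libraries, which may be technical.

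The endoplasmic reticulum (ER) folds secreted and membrane proteins. When unfolded protein builds up, the ER chaperone encoded by Hspa5 leaves 3 sensors, IRE1, PERK and ATF6, which become active. IRE1 splices the mRNA of Xbp1 into the form that encodes an active transcription factor, ATF6 is cleaved into one, and both raise ER chaperones and the machinery of ER-associated degradation through promoter sequences called ER stress elements. PERK and 3 related kinases that sense amino acid shortage, double-stranded RNA or haem shortage phosphorylate eIF2, which slows translation in general but favours the mRNA of Atf4. ATF4 then acts with C/EBP partners on composite sites in genes such as Ddit3, Trib3 and Asns. This second arm is the integrated stress response, and the double-stranded RNA kinase that feeds it is itself an interferon-stimulated gene.

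The sequences below show which of these elements stand in the accessible promoters, and what the accessible sequence inside and upstream of the genes looks like where values moved. The 250 bases before the TSS are given on the gene's strand from RefSeq (GRCm38, the patch release of mm10), with motif matches in capitals. In Hspa5 (chr2:34771840-34772089) the capitals mark a core of the unfolded protein response element and, closer to the start, an ER stress element. In Herpud1 (chr8:94386179-94386428) they mark an ATF4-C/EBP composite site on the other strand and an ER stress element of the second kind, and in Asns (chr6:7693210-7693459) a composite site just before the start.
Hspa5 promoter: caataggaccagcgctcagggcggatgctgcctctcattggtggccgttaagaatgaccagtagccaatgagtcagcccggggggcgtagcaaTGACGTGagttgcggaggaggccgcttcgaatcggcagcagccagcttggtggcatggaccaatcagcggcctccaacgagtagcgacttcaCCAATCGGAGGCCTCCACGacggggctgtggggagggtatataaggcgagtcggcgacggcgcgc
Herpud1 promoter: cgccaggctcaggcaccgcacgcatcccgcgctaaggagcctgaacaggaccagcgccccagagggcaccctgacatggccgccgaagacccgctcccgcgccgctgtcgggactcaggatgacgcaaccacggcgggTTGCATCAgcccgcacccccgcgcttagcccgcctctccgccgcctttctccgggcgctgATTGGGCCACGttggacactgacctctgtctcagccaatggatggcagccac
Asns promoter: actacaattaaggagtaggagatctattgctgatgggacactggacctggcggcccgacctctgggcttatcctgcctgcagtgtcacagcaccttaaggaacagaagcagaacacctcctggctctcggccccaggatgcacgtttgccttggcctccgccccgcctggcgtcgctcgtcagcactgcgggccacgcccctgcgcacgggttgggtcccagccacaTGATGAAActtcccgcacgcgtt

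Motifs were searched as fixed letters on both strands in the RefSeq promoter window of 250 bases before and 50 after the TSS (positions count from 0 at the TSS), and no pair of matches overlapped. The ER stress element (CCAAT, 9 bases of any kind, CCACG) stood in 2 of 10 member promoters, against 0.119% of 32851 RefSeq promoters. It lay at -65 to -47 in Hspa5 as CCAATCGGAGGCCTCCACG and in Hsp90b1 at -212 to -194 as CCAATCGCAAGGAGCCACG and, on the other strand, at -107 to -89 as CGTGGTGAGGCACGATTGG. The element of the second kind (ATTGGNCCACG) was found in Herpud1 alone among the 10, at -52 to -42, against 0.0365% of all promoters. The composite site (TGATGNAA) stood in Herpud1 at -112 to -105, in Trib3 at 14 to 21 and in Asns at -23 to -16, against 3.97% of promoters. The unfolded protein response core (TGACGTG) stood in Hspa5 at -157 to -151, against 2.01%. The windows of Pdia4, Dnajb9, Xbp1, Atf4 and Ddit3 held none of these letters, which says nothing of the factors outside these windows.

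A further 3 accessible stretches are shown on the forward strand because the comparison of oil with tamoxifen turned on them or on their neighbours. The first is the peak at -20950 bp of Herpud1 (chr8:94365348-94365610), in the last intron of the neighbouring gene Slc12a3, the member peak that passed the adjusted threshold. The others are the central 300 bases of a pair of peaks in the first intron of Ddit3, at 1269 bp (chr10:127291913-127292212), with a composite site in capitals, and at 2429 bp (chr10:127293073-127293372). The groups overlapped at the former, whereas every tamoxifen library lay above every oil library at the latter.
Herpud1 peak at -20950 bp: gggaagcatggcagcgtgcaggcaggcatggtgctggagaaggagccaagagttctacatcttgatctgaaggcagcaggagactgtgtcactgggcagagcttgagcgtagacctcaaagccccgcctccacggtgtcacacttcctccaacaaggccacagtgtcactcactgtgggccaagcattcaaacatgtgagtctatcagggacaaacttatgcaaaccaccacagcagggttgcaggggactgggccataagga
Ddit3 peak at 1269 bp: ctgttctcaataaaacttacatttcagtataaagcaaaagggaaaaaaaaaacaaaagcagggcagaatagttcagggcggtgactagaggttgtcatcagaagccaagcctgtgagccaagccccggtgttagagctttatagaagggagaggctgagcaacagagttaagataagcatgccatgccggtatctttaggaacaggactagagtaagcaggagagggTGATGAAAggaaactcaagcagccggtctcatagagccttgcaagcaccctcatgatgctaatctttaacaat
Ddit3 peak at 2429 bp: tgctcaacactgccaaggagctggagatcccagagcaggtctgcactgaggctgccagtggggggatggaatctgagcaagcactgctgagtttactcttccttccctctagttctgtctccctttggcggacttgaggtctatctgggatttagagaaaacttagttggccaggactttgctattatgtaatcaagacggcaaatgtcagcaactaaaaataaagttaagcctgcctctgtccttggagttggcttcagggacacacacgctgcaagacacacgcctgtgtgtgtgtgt

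In windows of 300 bases centred on each peak, the composite site stood at 11 of 165 member peaks, or 6.67%, against 3.51% of the windows of all peaks. These were the peaks nearest the starts of Herpud1, Trib3 and Asns, the Ddit3 peaks at 842 and 1269 bp, the Dnajb9 peaks at 3039, 11132 and 11734 bp, the Herpud1 peaks at 13050 and 18260 bp and the Hspa5 peak at -1714 bp. The ER stress element stood in 2 member peaks (1.21%, against 0.029% of all peaks), at the start of Hspa5 and in the Xbp1 peak at 284 bp. The element of the second kind stood in 0.606% of member peaks against 0.0154% of all, and the unfolded protein response core in 1.82% against 1.37%.

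Libraries held 57.4 to 74.7 M tags, of which 17.5 to 21.1 M lay in peaks, with a median of 45 to 57 tags per peak. Values below are normalised tags, the raw tags of a peak or gene divided by the DESeq2 size factor of the library. Chi-square over its degrees of freedom was 1.04 to 1.22 between pairs of oil libraries, close to counting error, and 1.49 to 2.68 between tamoxifen pairs. Tamoxifen library 4 stood apart, as its log2 tags correlated more closely with the oil libraries (0.960 to 0.964) than with tamoxifen libraries 1 and 3 (0.949), so results are given without it too where that matters. The peak at the Usp18 TSS held 415 to 458 normalised tags in oil and 438 to 469 after tamoxifen, which does not check the deletion, since the place of the floxed exon is not given in the sources used here. Marker genes of c-Kit+ progenitors or blasts all had peaks within 3000 bp of their TSS (5 of 5), with 9613 to 9825 normalised tags in oil and 9560 to 10615 after tamoxifen in sum. Of these, Cd34 was higher after tamoxifen without overlap (73.9, 92.6 and 117 in oil against 265, 333 and 212), Myb was lower without overlap (1322, 1382 and 1283 against 1280, 1230 and 1266), and Kit, Gata2 and Runx1 overlapped.

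The start sites of the stress genes were open in every library, and none passed the test for a change. Promoter windows were overlapped by a peak in 9 of 10 genes, at a mean of 2445 to 4008 normalised tags per kb of peak in oil and 2434 to 4104 after tamoxifen. The promoter peak of Hspa5, the widest at 443 bp, held 1734, 1626 and 1589 normalised tags in oil and 1620, 1728 and 1554 after tamoxifen. That of Ddit3, which also overlaps the gene Mbd6, held 1076, 1045 and 1019 against 1088, 1169 and 1003. For Hsp90b1 and Dnajb9 the promoter peak carried the name of a neighbour (Ttc41 and Mir5627) and is therefore not among the 165. For Xbp1 no peak overlapped the window, and its first strong peak lay at 284 bp, with 614, 587 and 572 normalised tags in oil and 606, 628 and 563 after tamoxifen. Oil and tamoxifen libraries overlapped at all 9 promoter peaks. The log2 fold changes of tamoxifen over oil ran from -0.04 (Asns) to 0.05 (Ddit3), with standard errors of 0.07 to 0.09 and adjusted p-values of 0.957 or more in the DESeq2 test over all peaks.

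**Figure D1:**
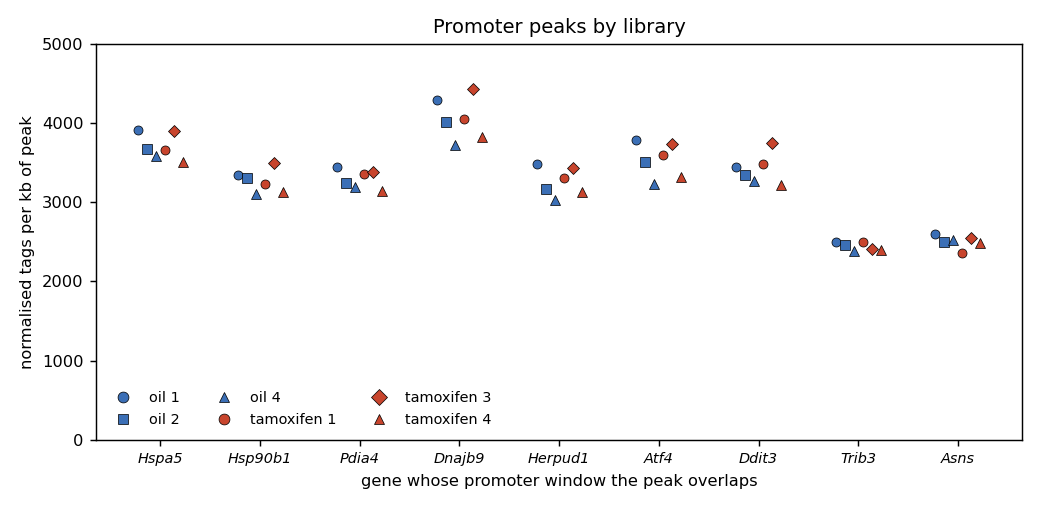
Normalised tags per kb of peak (vertical axis, from 0) at the peak overlapping the promoter window of 9 genes (horizontal axis). Each point is 1 library, blue for oil and red for tamoxifen, and the points of both groups overlap at all 9 genes.

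Away from the start sites the genes divided into those with a run of higher values after tamoxifen (Ddit3, Herpud1 and Dnajb9) and those without. The study's limits were a fold change over 2 with an adjusted p below 0.05. They were applied here also to the peaks within 3000 bp of a TSS that the study left out. With DESeq2 none (0) of the 165 member peaks passed them, where 0.654% of all peaks did. With edgeR 1 passed, and the edgeR share of all peaks at these limits was not computed. The adjusted threshold alone was passed with DESeq2 by 1 member peak, a rise at Herpud1, where 1.39% of all peaks passed and 1.22% passed as higher. At an unadjusted p below 0.05 there were 23 member peaks (13.9%), against 9.02% of all peaks. Of these, 21 were higher (12.7%, against 6.18% of all peaks) and 2 lower (1.21%, against 2.84%). All tamoxifen libraries lay above all oil libraries at 26 member peaks (15.8%, against 11.9% of all peaks) and below them at 8 (4.85%, against 10.0%). The median log2 fold change was 0.06 over member peaks and -0.0013 over all peaks, and 102 of 165 member peaks (61.8%) were above 0, against 49.7% of all peaks. The median was 0.03 without tamoxifen library 1, and the median log2 ratio of tamoxifen library 4 to the oil mean (-0.01) lay inside the range of the oil libraries (-0.02 to 0.03). All 21 of the higher peaks came from Ddit3 (9), Herpud1 (7) and Dnajb9 (5), and peaks of 1 gene are neighbours and not independent.

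A peak could enter the table through the list of 1 group alone, and its direction is then partly fixed by that choice. Of the 165 member peaks, 123 were in the lists of both groups, 24 in that of oil only and 18 in that of tamoxifen only. Of the 21 higher peaks, 17 were in both lists (13.8% of the 123, against 6.39% of all peaks in both lists), 3 in the tamoxifen list and 1 in the oil list. Of the 26 peaks with tamoxifen wholly above oil, 20 were in both lists (16.3%, against 12.2%), and of the 8 wholly below, 6 were, with the other 2 in the oil list.

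**Figure D2:**
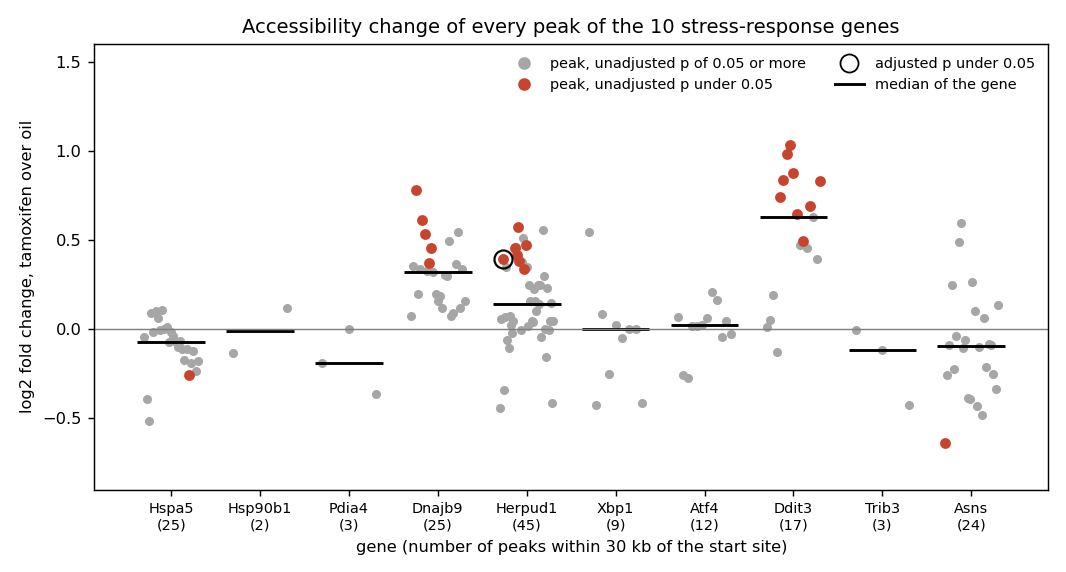
Log2 fold change of tamoxifen over oil (vertical axis) for each of the 165 peaks, by gene (horizontal axis, number of peaks in brackets, peaks in order of position within a gene). Red marks an unadjusted p below 0.05 and the ring an adjusted p below 0.05, and the bars are medians, which were highest at Ddit3 (0.63), Dnajb9 (0.32) and Herpud1 (0.14).

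Among the ER chaperones and folding enzymes, Hspa5, Hsp90b1 and Pdia4 had no peak that passed the test and Dnajb9, which had none either, held a broad run of higher values. Hspa5 encodes BiP, the main Hsp70 chaperone of the ER and the brake on the stress sensors. Over its 25 peaks the median log2 fold change was -0.07, and most of its signal, 60.6% of its tags in oil, lay in 15 peaks past its 3′ end, a stretch that overlaps the gene Rabepk. Summed over these, the libraries held 6135, 6527 and 7267 normalised tags in oil and 6685, 6101 and 5670 after tamoxifen, so that the groups overlapped. The Hspa5 peak with the smallest p, at 11102 bp (chr2:34783083-34783301), held 549, 569 and 564 normalised tags in oil against 501, 415 and 490. All tamoxifen libraries were below oil there, by a log2 fold change of -0.26 ± 0.10 (SE) with a DESeq2 adjusted p of 0.248.

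Hsp90b1 encodes GRP94, the ER form of Hsp90, and had 2 peaks under its name. The nearer, at 363 bp, which also had the smaller p, held 208, 208 and 215 normalised tags in oil and 190, 191 and 195 after tamoxifen. Tamoxifen libraries were lower without overlap, by -0.13 ± 0.14 on the log2 scale (SE, DESeq2 adjusted p = 0.907). Pdia4 encodes a disulphide isomerase of the ER. Its peak with the smallest p, at 3135 bp, held 65.6, 72.2 and 80.2 normalised tags in oil and 49.3, 64.6 and 56.8 after tamoxifen, again without overlap (log2 fold change -0.37 ± 0.24, SE, DESeq2 adjusted p = 0.742).

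Dnajb9 encodes ERdj4, a J-domain partner of BiP that helps clear misfolded protein and holds IRE1 silent. Its 25 member peaks lay in the gene and past its 3′ end, and all 25 had a log2 fold change above 0, from 0.08 to 0.78 (49.7% of all peaks were above 0). Of these, 5 had an unadjusted p below 0.05 (6.18% of all peaks were higher at that p). The same number had groups that did not overlap (11.9% of all peaks as higher), and none passed after adjustment. The peak with the smallest p, at 4099 bp, held 113, 93.6 and 101 normalised tags in oil and 137, 191 and 118 after tamoxifen, with library 3 the highest (log2 fold change 0.53 ± 0.20, SE, DESeq2 adjusted p = 0.210). The peak nearest the TSS, at 1631 bp, held 107, 112 and 129 against 103, 131 and 132 and overlapped.

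The excess at Dnajb9 was not shared evenly by the tamoxifen libraries. Within the gene its 7 peaks summed to 473, 426 and 501 normalised tags in oil and 537, 778 and 526 after tamoxifen, a ratio of means of 1.32. Past the 3′ end, 18 peaks summed to 2069, 2064 and 2234 in oil and 2870, 2728 and 1952 after tamoxifen, where library 4 lay below oil and the other pair above it. Without tamoxifen library 4, 1 peak of Dnajb9 passed the adjusted threshold and 15 of 25 had an unadjusted p below 0.05, as 13.7% of all peaks did in that fit.

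Herpud1, which encodes an ER membrane protein that gathers the degradation machinery, held the single member peak past the adjusted threshold. The peak at -20950 bp, nearer to the 3′ end of Slc12a3 than to Herpud1, held 440, 358 and 402 normalised tags in oil and 514, 593 and 470 after tamoxifen. All tamoxifen libraries were above all oil libraries, and the peak rose by 0.39 ± 0.11 on the log2 scale (SE, DESeq2 adjusted p = 0.0373). The nearest flanking peak under this name, at -22901 bp, held 377, 354 and 367 in oil and 367, 384 and 391 after tamoxifen, and overlapped. The call was lost without oil library 1 (DESeq2 adjusted p = 0.0769), oil library 2 (0.479), oil library 4 (0.273), tamoxifen library 1 (0.172) or tamoxifen library 3 (0.630), and it held without tamoxifen library 4 (0.00227).

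Inside Herpud1 most peaks had higher values after tamoxifen, though none passed after adjustment with DESeq2. With edgeR those at 3807 and 4821 bp passed (edgeR adjusted p = 0.0334 and 0.0443), where 2.94% of all peaks did. Of 10 peaks in the gene body, 9 had a log2 fold change above 0 (49.7% of all peaks did) and 7 had tamoxifen libraries wholly above oil (11.9% of all peaks). At an unadjusted p below 0.05 there were 6, all higher (6.18% of all peaks), and the median log2 fold change of the 10 was 0.44. The peak at 3807 bp, the lowest p among them, held 183, 167 and 153 normalised tags in oil and 221, 212 and 237 after tamoxifen (log2 fold change 0.42 ± 0.14, SE, DESeq2 adjusted p = 0.147). The peak at 4821 bp, in the tamoxifen list only, held 76.1, 63.9 and 66.3 against 109, 96.9 and 100.1 (0.57 ± 0.21, adjusted p = 0.191). Summed over the gene body, oil libraries held 993, 824 and 851 normalised tags and tamoxifen libraries 1156, 1075 and 1232, a ratio of means of 1.30 with all tamoxifen libraries above oil.

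Around the start site and past the 3′ end the groups overlapped. The peak nearest the Herpud1 TSS, at -34 bp, held 761, 690 and 661 normalised tags in oil and 722, 747 and 681 after tamoxifen. Past the 3′ end, 23 peaks summed to 1946, 2085 and 1862 in oil and 2687, 1807 and 1940 after tamoxifen, where only tamoxifen library 1 exceeded oil. None (0) of these 23 had an unadjusted p below 0.05 with DESeq2.

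**Figure D3:**
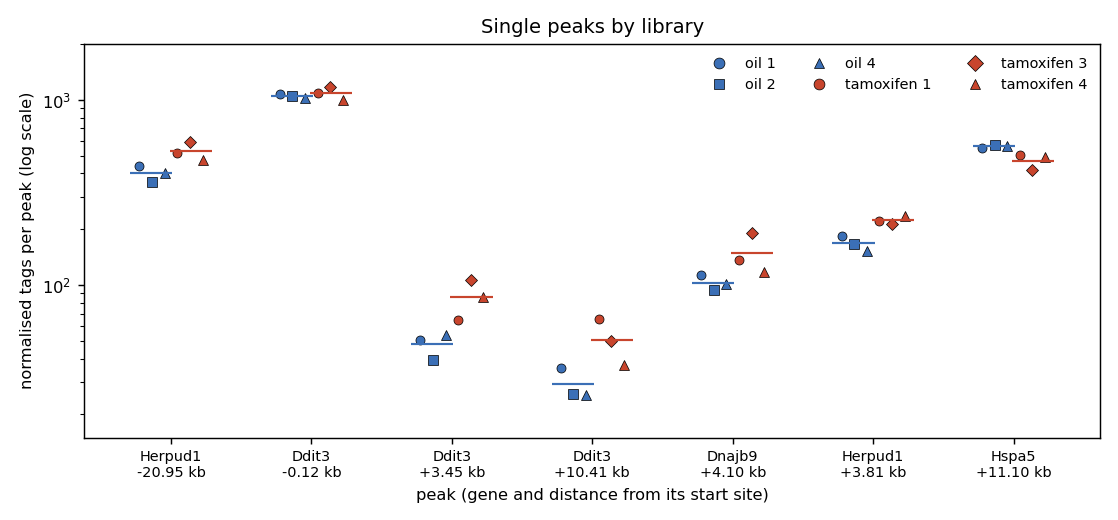
Normalised tags (vertical axis, log scale) of 7 single peaks in each library, named by gene and distance from the TSS in kb (horizontal axis). Points are libraries, blue for oil and red for tamoxifen, and short bars are group means. Groups overlap at the Ddit3 promoter and are apart at the other 6 peaks, with Hspa5 the one that is lower after tamoxifen. The Ddit3 peak at 10413 bp was in the tamoxifen list only.

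Of the transcription factor genes, none held a peak past the adjusted threshold, and Ddit3 had the highest median log2 fold change of the 10 genes (0.63). Xbp1 encodes the factor activated by IRE1 splicing. Over its 9 peaks the median log2 fold change was 0.00. The one with the smallest p, at -14512 bp, held 86.6, 86.3 and 77.9 normalised tags in oil and 54.6, 57.9 and 73.6 after tamoxifen (log2 fold change -0.42 ± 0.23, SE, DESeq2 adjusted p = 0.603), lower in all tamoxifen libraries. Atf4 encodes the factor whose translation rises when eIF2 is phosphorylated, a step that this assay does not see. Its peak at the TSS, at 6 bp, held 762, 706 and 650 against 723, 752 and 668. Its peak with the smallest p, at 2010 bp, held 312, 298 and 354 in oil and 274, 432 and 409 after tamoxifen (0.21 ± 0.14, adjusted p = 0.774), and groups overlapped at all 12 Atf4 peaks.

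Ddit3 encodes CHOP, the factor tied to cell death under prolonged ER stress and a target of ATF4. Of its 17 peaks, 16 had a log2 fold change above 0 (49.7% of all peaks did) and 10 had tamoxifen libraries wholly above oil (11.9% of all peaks). At an unadjusted p below 0.05 there were 9, all higher (6.18% of all peaks), while none passed after adjustment. Of the 10 wholly above oil, 6 were in both lists, 3 in the tamoxifen list only and 1 in the oil list only. The peak with the smallest p, at 3451 bp in an intron (chr10:127293846-127294643), held 50.2, 39.5 and 53.8 normalised tags in oil and 64.8, 106 and 86.1 after tamoxifen. Its log2 fold change was 0.84 ± 0.26 (SE) and its DESeq2 adjusted p 0.0664. The neighbouring peak at 2429 bp, whose sequence is given above, held 44.7, 41.9 and 42.1 against 63.3, 87.5 and 64.2 (0.74 ± 0.26, adjusted p = 0.158). With edgeR, 6 Ddit3 peaks from 2429 to 5520 bp passed the adjusted threshold, among 9 member peaks in all, where 2.94% of all peaks passed. One of the 6, at 4318 bp and in the oil list only, was the member peak past the study's fold rule by edgeR, at 17.6, 21.9 and 23.3 normalised tags in oil against 42.5, 48.5 and 37.7.

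Higher values at Ddit3 were not continuous from the start site. The peak at 842 bp, in the tamoxifen list only, held 132, 126 and 141 normalised tags in oil and 153, 148 and 156 after tamoxifen, apart between groups by a log2 fold change of 0.19. At 1269 bp the peak held 398, 424 and 404 normalised tags in oil and 377, 321 and 421 after tamoxifen, and its groups overlapped. From 2429 to 4763 bp all 5 peaks were higher without overlap (3 in both lists, that at 4763 bp in the tamoxifen list only), none with more than 106 normalised tags in a library, so that counting error weighs more there than at the promoter. Past the 3′ end, where peaks overlap Mars1, a methionyl-tRNA synthetase gene, 8 of 8 peaks had a log2 fold change above 0. Of these, 4 were wholly above oil (11.9% of all peaks were). Those at 7784 and 10413 bp were in the tamoxifen list only, the latter among the 4, and those at 8564 and 8937 bp in the oil list only. The 8 peaks summed to 285, 318 and 318 in oil and 541, 451 and 388 after tamoxifen, a ratio of means of 1.50. The 3 peaks around the start site summed to 1694, 1618 and 1664 in oil against 1706, 1851 and 1613 after tamoxifen, a ratio of 1.04. Of these, the peaks at -853 and -122 bp also overlap Mbd6.

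**Figure D4:**
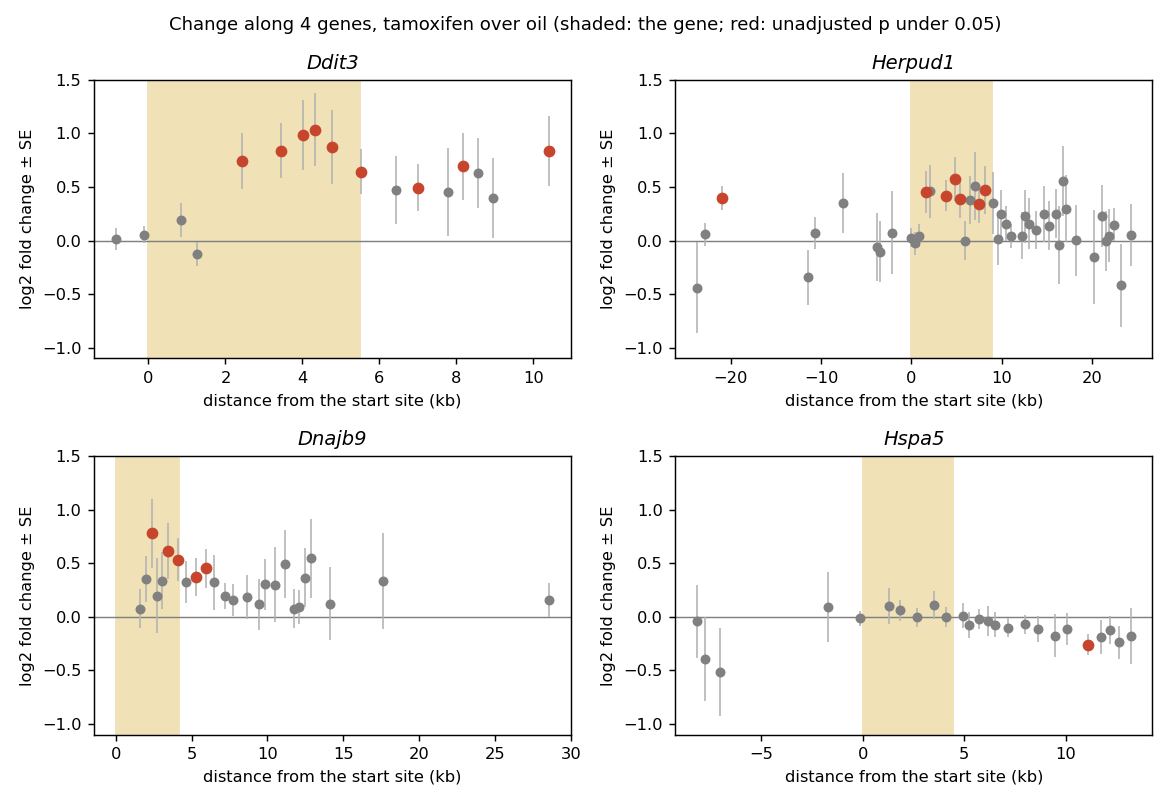
Log2 fold change of tamoxifen over oil with its standard error (vertical axes) against distance from the TSS in kb (horizontal axes) for the peaks of Ddit3, Herpud1, Dnajb9 and Hspa5. The shaded band is the gene and red marks an unadjusted p below 0.05, which 9 Ddit3, 7 Herpud1, 5 Dnajb9 and 1 Hspa5 peak had.

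The 2 remaining genes are targets of ATF4 and had no peak past the adjusted threshold. Trib3 encodes a pseudokinase that ATF4 and CHOP induce. Its 3 peaks had log2 fold changes from -0.43 to -0.01, and the one at the TSS, at -21 bp, held 541, 534 and 517 normalised tags in oil against 542, 522 and 521. Its smallest p was at 489 bp, with 494, 468 and 427 against 413, 445 and 420 (-0.12 ± 0.10, SE, DESeq2 adjusted p = 0.862). Asns encodes asparagine synthetase, whose promoter holds the composite site shown above. Its peak over that site, at -72 bp, held 555, 535 and 540 normalised tags in oil and 506, 545 and 533 after tamoxifen. Its smallest p was at -5600 bp, a small peak in the oil list only, with 46.3, 44.9 and 43.5 in oil against 23.7, 32.3 and 30.7 (-0.64 ± 0.31, adjusted p = 0.513), lower in all tamoxifen libraries. Over its 24 peaks 7 log2 fold changes were above 0. Without tamoxifen library 4, the Asns peak at -4958 bp passed as lower (log2 fold change -0.46, DESeq2 adjusted p = 0.0248), and the Dnajb9 peak at 4099 bp and the Herpud1 peak at -20950 bp passed as higher. These were 3 of 165 member peaks, where 3.71% of all peaks passed.

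Tags summed per gene over all its peaks gave 1 value for each gene and library, tested the same way over 18985 genes. The totals given here are divided by the size factors of the peak fit, whereas the test set its own from the gene totals. With edgeR 1 of the 10 member genes passed, and 2 had an unadjusted DESeq2 p below 0.05. The shares of all genes at these 2 tests were not computed. After adjustment with DESeq2 no member gene passed (0 of 10), where 4.97% of all genes did. Ddit3 came nearest, with 2540, 2509 and 2553 normalised tags in oil and 2885, 2969 and 2692 after tamoxifen, all tamoxifen libraries above oil (log2 fold change 0.15 ± 0.06, SE, adjusted p = 0.0897, and 0.0441 with edgeR). Herpud1 held 5707, 5444 and 5265 against 6606, 5734 and 5871, apart only by the small margin of 5734 over 5707 (0.14 ± 0.06, adjusted p = 0.201). Dnajb9 held 2543, 2490 and 2735 against 3407, 3506 and 2478, so that tamoxifen library 4 lay below every oil library (0.26 ± 0.15, adjusted p = 0.424). Hspa5, the largest, held 10502, 10646 and 11757 against 10831, 10782 and 9916. The other totals had log2 fold changes from -0.13 to 0.02. Without tamoxifen library 4, 3 gene totals passed, Dnajb9 at 0.39 (adjusted p = 2.33e-08), Ddit3 at 0.18 (0.0127) and Asns at -0.21 (0.0367), where 11.8% of all genes passed.

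**Figure D5:**
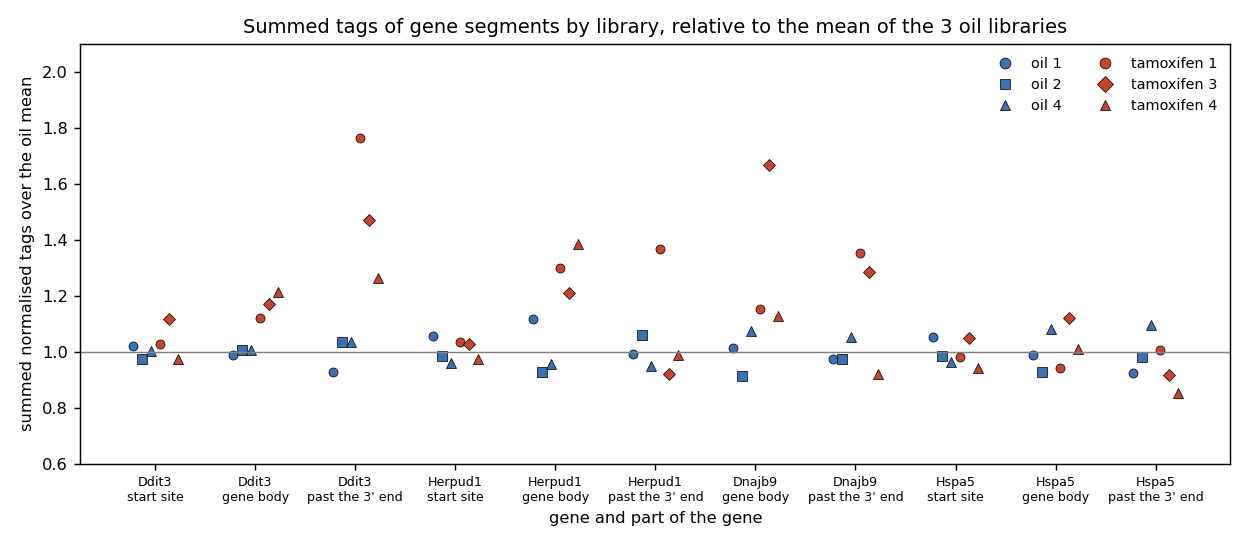
Normalised tags summed over the peaks of a part of a gene and divided by the mean of the 3 oil libraries (vertical axis), for the start site (within 1000 bp), the gene body and the stretch past the 3′ end of 4 genes (horizontal axis; the Dnajb9 start site has no peak under its name). Each point is a library. All tamoxifen libraries lie above oil in the gene bodies of Ddit3, Herpud1 and Dnajb9 and past the 3′ end of Ddit3, and past the 3′ ends of Herpud1 and Dnajb9 they overlap with oil.

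Beyond the 10 genes, a list of further genes of both responses with peaks within 30000 bp (84 genes, 847 peaks) stood at a median log2 fold change of -0.03. Only Stc2 passed, at 4 peaks, which is 0.472% of the list's peaks, against 1.39% of all peaks. Stc2 encodes stanniocalcin 2, a secreted glycoprotein induced through PERK and ATF4. All 7 of its peaks had a log2 fold change above 0, but 5 of them were in the tamoxifen list only and 2 in both lists. The peak at 14097 bp held 4.41, 2.44 and 8.51 normalised tags in oil and 51.2, 54.0 and 31.7 after tamoxifen, a rise of 3.12 ± 0.51 on the log2 scale (SE, DESeq2 adjusted p = 8.58e-07). Those at 3050, 574 and -3572 bp rose by 2.21, 1.13 and 0.71, with adjusted p-values of 0.000549, 0.00794 and 0.00749. At each of the 4 the groups did not overlap. The peaks at 14097 and 3050 bp were in the tamoxifen list only, so that their direction was partly fixed by the choice of peaks, and those at 574 and -3572 bp were in both lists. Without oil library 2 or tamoxifen library 1 no peak of the list passed, without tamoxifen library 3 only 1 did, at Ddit4, and without oil library 1 Stc2 kept 2 peaks. In the first 3 of these fits the Stc2 peaks at 14097 and 3050 bp received no adjusted p from DESeq2.

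The other roles held no peak past the threshold. Unadjusted p-values below 0.05 were found at 1 of 105 peaks of other ER chaperones and folding enzymes, 3 of 94 of ER-associated degradation, 3 of 90 of translocation and secretion, 1 of 76 of the sensors and eIF2 kinases, 2 of 88 of the eIF2 and phosphatase subunits, 5 of 83 of the other stress transcription factors and 22 of 311 of amino acid supply and ATF4 targets, Stc2 included. Over the list 26 of these were higher (3.07%, against 6.18% of all peaks), 6 of them at Stc2. Another 11 were lower (1.30%, against 2.84%), in all 4.37% of the list's peaks, against 9.02% of all peaks. The smallest p of each role lay at Canx, the lectin chaperone calnexin (log2 fold change 0.46, DESeq2 adjusted p = 0.449), at Os9, a lectin of the degradation pathway (-0.38, 0.174), at Ssr1 of the translocon (0.31, 0.194), at the sensor gene Atf6 (0.44, 0.214), at Eif2b5, a subunit of the eIF2 exchange factor (-0.43, 0.467), and at Creb3l2, a membrane-bound factor related to ATF6, at a peak in the oil list only (-0.81, 0.341).

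Plasma cells depend on Xbp1 and on much of this machinery, and markers of plasma and other cells were therefore measured. Plasma cell markers, summed within 3000 bp of their TSS (5 of 5 with a peak), held 711 to 763 normalised tags in oil and 758 to 957 after tamoxifen, and overlapped in sum. Sdc1 and Irf4 were higher without overlap, Mzb1 and Prdm1 overlapped, and Tnfrsf17, which encodes the receptor BCMA, held 28.1, 26.3 and 13.9 in oil against 18.8, 15.6 and 15.8. Erythroid markers (6 of 6) were lower after tamoxifen, at 4466 to 4486 against 4666 to 4928. B cell markers (2 of 5, none at Cd79b, Ms4a1 and Pax5) held 505 to 576 in oil and 456 to 622 after tamoxifen, and T cell markers (3 of 6, none at Cd3d, Cd4 and Cd8a) 440 to 568 and 430 to 485. Mature myeloid markers (2 of 6, none at S100a8, S100a9, Ly6g and Csf1r) were low, at 67.3 to 83.8 in oil and 85.5 to 89.1 after tamoxifen. The part of these shifts in the values of Ddit3, Herpud1, Dnajb9 and Stc2 was not tested. In sorted bulk cells, a change in the mix of cells and a change within each cell cannot be told apart.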

How the data were processed

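ATAC-seq was measured in 6 libraries, 3 oil and 3 tamoxifen, grouped by their titles and characteristics. The authors mapped reads to mm10 with Bowtie2 and called peaks per group with HOMER, then merged them (methods and file header, versions not given in the sources used here). The deposited table holds raw tags per merged peak, an estimated count in steps of 0.5 without normalisation, each position counted up to 3 times, beside a peak score from the authors that was not used here. Peak lists came from the libraries compared, and the cap limits the tallest peaks.

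After rounding to whole tags, tamoxifen was compared with oil by DESeq2 1.42.0 in R 4.3.3 (Wald test, Benjamini-Hochberg over all 175929 peaks), as were tags summed per gene over peaks within 30000 bp. The test was checked on simulated data. Alternatives were edgeR 4.0.16 (quasi-likelihood), other size factors, a low-tag filter, distances, thresholds, separate fits of peaks within and beyond 3000 bp of a TSS, a replicate block and leaving out each library. Of each gene, the peak nearest the TSS, the peak with the smallest p and any past the adjusted threshold are named, and of the further list every gene past the threshold and the smallest p of each role. The other peaks given (flanking peaks, runs in Ddit3 and Herpud1, peaks passing under an alternative) and the split into gene segments were chosen after their values were seen. The genes and lists were chosen with earlier results of these data known. TSS distances in the table lay within 0.5 bp of RefSeq for 9 genes and differed by 26.5 to 27 bp for Asns. RefSeq sequences matched 10 of 10 genes.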

Additional observations from a re-analysis of the deposited data

How the results depend on the processing

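At the study's rule, edgeR called 1 member peak in place of 0, and its share of all peaks at that rule was not computed. Member peaks past the adjusted threshold numbered 9 with edgeR, 2 at an adjusted p below 0.1, and 0 with total tags in peaks as size factors, with distal and proximal peaks fitted separately, within 10000 bp of the TSS or under the replicate block, in place of 1 (0 to 3 when 1 library was left out, 3 without tamoxifen library 4). The list of further genes (847 peaks) gave 10 peaks with edgeR and 0 with the replicate block in place of 4 (0 to 12 on leaving out 1 library, 12 without tamoxifen library 4). The share of all peaks past the threshold rose as well, from 1.39% in the main fit to 2.94% with edgeR and 3.71% without tamoxifen library 4. Member gene totals past the threshold numbered 1 with edgeR, with library totals as size factors and at an adjusted p below 0.1, in place of 0 (0 to 3, 3 without tamoxifen library 4). Of all gene totals, 4.97% passed in the main fit and 11.8% without tamoxifen library 4, and the shares in the other fits were not computed. The replicate block, possible on libraries 1 and 4 of each group only, gave a median member log2 fold change of -0.00284 in place of 0.06. Same-numbered libraries did not deviate together (correlation of deviations -0.04 for number 1 and 0.05 for number 4). Because oil libraries differed from each other by little more than counting error, this check cannot tell whether the numbers pair the libraries. The low-tag filter removed no peak.

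Signs turned only where the value was near 0. At the peak nearest the TSS, separate fits gave 0.00444 for Hspa5, 0.0180 for Pdia4 and 0.0138 for Trib3, and library totals gave 0.0106 for Pdia4, 0.00597 for Trib3 and 3.21e-05 for the Xbp1 total. The replicate block gave -0.00889 for Dnajb9, -0.0192 for Herpud1, -0.0211 for Xbp1, -0.0203 for Atf4, -0.00658 for Ddit3, 0.00543 for Trib3 and -0.0722 for the Atf4 total. Leaving out 1 library gave -0.0555 to 0.0232 for Hspa5, -0.0220 to 0.0345 for Pdia4, -0.0183 to 0.0843 for Herpud1, -0.0130 to 0.0665 for Xbp1, -0.0385 to 0.0748 for Atf4, -0.00163 to 0.110 for Ddit3, -0.0255 to 0.00824 for Trib3 and -0.0426 to 0.0820 for the Atf4 total. The Herpud1 peak at -20950 bp also missed the threshold with total tags in peaks (DESeq2 adjusted p = 0.0785), in separate fits (0.228) and under the block (1.00). The cause of these shifts was not tested. Peaks with few tags, such as those in the Ddit3 gene body and of Stc2, are limited by counting error.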
